A study of Homo sapiens with 8 samples.

Results

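Differentiated Caco-2 cells given micelles without lipid were compared with differentiated control cells by ribosome profiling (Ribo-Seq). In this assay nuclease digests RNA that is not covered by ribosomes, and the covered footprints are sequenced. The comparison took 4 of the 8 libraries of the series, 2 from cells with micelles and 2 from control cells, chosen by their labels alone. All 4 libraries came from differentiated cells of 1 established line, Caco-2, which was derived from a human colon carcinoma and in long culture comes to resemble the absorptive cells of the small intestine. The other 4 libraries came from differentiated cells given lipid micelles and from undifferentiated cells, 2 of each, and they entered the fit to share its estimate of spread. For its mass spectrometry the study names sodium taurocholate as the micelle former and serum-free medium alone as the control. The composition, dose and time of the micelles in the Ribo-Seq cultures are not given in the sources used here, nor is it said whether the replicates came from separate cultures, so that p-values measure the spread between these libraries, which may be technical.

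Reads were counted over 24199 small open reading frames (smORFs), short reading frames outside known coding sequence. Of these, 23148 carried a label with the gene or genes they lie in, and their counts were also summed over each of the 7143 labels, called host genes here. Where a smORF lies over a small RNA encoded within another gene, the label joins both names, as in POR;SNORA14A. The control libraries held 506382 and 786310 smORF counts and the libraries with micelles 574495 and 777940. Replicate 2 was thus the deeper library of each pair. Levels are given as CPM, counts scaled to the same library total by TMM, and fold changes compare micelles without lipid with control.

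Bile salts such as taurocholate are made in the liver and form micelles in the gut lumen, which carry fatty acids and cholesterol to the brush border. Enterocytes take bile salts up again, bind them in the cytosol and pass them on to the blood, and the nuclear receptor FXR adjusts these steps to the bile acid load. Many smORFs are upstream reading frames (uORFs) in the 5′ leaders of mRNAs, where translation can hold back that of the main protein. Other smORFs lie in non-coding RNAs, some of them over small nucleolar RNAs (snoRNAs), which are cut out of introns of their host genes and guide chemical modification of other RNAs, or over microRNA precursors. A read over a structured small RNA need not come from a ribosome, so a count there is a footprint-sized RNA fragment and not by itself a sign of translation.

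In a fit that added a block for the replicate number, described below, 15 smORFs were called. Of these, 12 lay over small RNA genes, and short ones are shown here with the small RNA each lies over. Sequences are the deposited ones, 5′ to 3′ on the strand of the smORF (hg38), and capitals mark the first codon in the first group of lines.

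IEC_17534 (SNORA19, chr10:119060071-119060088, minus): ATGtgctatacaaataat
IEC_17557 (SNORA12, chr10:100237236-100237259, minus): ATGggcctaactctgccacatata
IEC_03504 (SNORA14A, chr7:75943818-75943844, plus): ATGcttccaagatatgagcgaatgcta
IEC_16522 (SNORA21, chr17:38852929-38853021, minus): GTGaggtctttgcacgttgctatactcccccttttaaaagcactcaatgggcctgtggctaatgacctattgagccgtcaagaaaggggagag
IEC_23054 (SCARNA4, chr1:155926029-155926055, minus): AGTaagactttgctgatacattcctcc
IEC_16534 (RNU1-34P, chr6:75473769-75473798, minus): ATGtgggaaactgagttgcataatttgtgg

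In the smORF over SNORD50B, a C/D box snoRNA, the capitals mark ATGATGA, letters that match the box C element of this RNA class. The start codon of the reading frame is the first 3 of them. Read on the strand of the smORF, ATGATGA occurred in 125 of the 24199 smORFs (0.517%), and on either strand in 256 (1.06%). It stood in 9 of the 35 smORFs over SNORD genes.

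IEC_16539 (SNORD50B, chr6:85677624-85677653, minus): ATGATGAaacctatcccgaagctgataacc

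In the smORF over MIR22 the capitals mark the bases of mature miR-22-5p, from its base 3, and of the whole miR-22-3p. The mature miR-22-3p follows as RefSeq gives it, with its seed (bases 2 to 8) in capitals.

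IEC_16521 (MIR22, chr17:1713903-1713971, minus): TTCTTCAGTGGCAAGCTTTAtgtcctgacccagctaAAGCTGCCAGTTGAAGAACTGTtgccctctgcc
hsa-miR-22-3p (chr17:1713914-1713935, minus): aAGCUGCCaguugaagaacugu

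Without a term for the replicate number, no smORF and no host gene passed the thresholds of an adjusted p under 0.05 and a log2 fold change of at least 1 in size (edgeR's quasi-likelihood test, 0%, 0 of 15182 smORFs and 0 of 4966 host genes). An unadjusted p under 0.05 was reached by 619 smORFs (4.08%), 371 higher with micelles (2.44%) and 248 lower (1.63%). Among host genes 243 (4.89%) reached it, 132 higher (2.66%) and 111 lower (2.24%). Over all features tested, 51% of smORFs and 49.8% of host genes had a log2 fold change above 0. DESeq2 called 2 smORFs (0.0132%), over SNORD50B and SNORA21, and 3 host genes (0.0604%), SNHG5;SNORD50B, RPL23;SNORA21 and RAD23B, all higher with micelles.

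In a fit of the 6 differentiated libraries that added a block for the replicate number, 15 of 14360 smORFs were called (0.104%), all of them higher with micelles, and 12 of 4736 host genes (0.253%), 11 higher (0.232%) and 1 lower (0.0211%). Of the 15 smORFs, 12 lay over small RNA genes. Among all smORFs tested the share over small RNA genes was 1.17%. The 15 formed 10 clusters of overlapping smORFs, since 5 of them shared the reads of MIR22 and 2 those of RAD23B. Every one of the 15 was higher with micelles within replicate 1 and within replicate 2. In 12 of the 15 both micelle libraries lay above both controls, against 16.2% of all smORFs tested. The 15 were chosen for a rise in these same libraries, so nothing is read from these counts. They were short, with a median of 30 bases against 102 bases over all smORFs tested. Library 2 of each pair was also the higher one for all 15, in control cells and in cells with micelles, and the labels do not say whether equal replicate numbers mark libraries made together. With the small RNA smORFs left out and the block kept, 3 smORFs of 13939 (0.0215%) and 1 host gene of 4618 (0.0217%) were called.

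**Figure D1:**
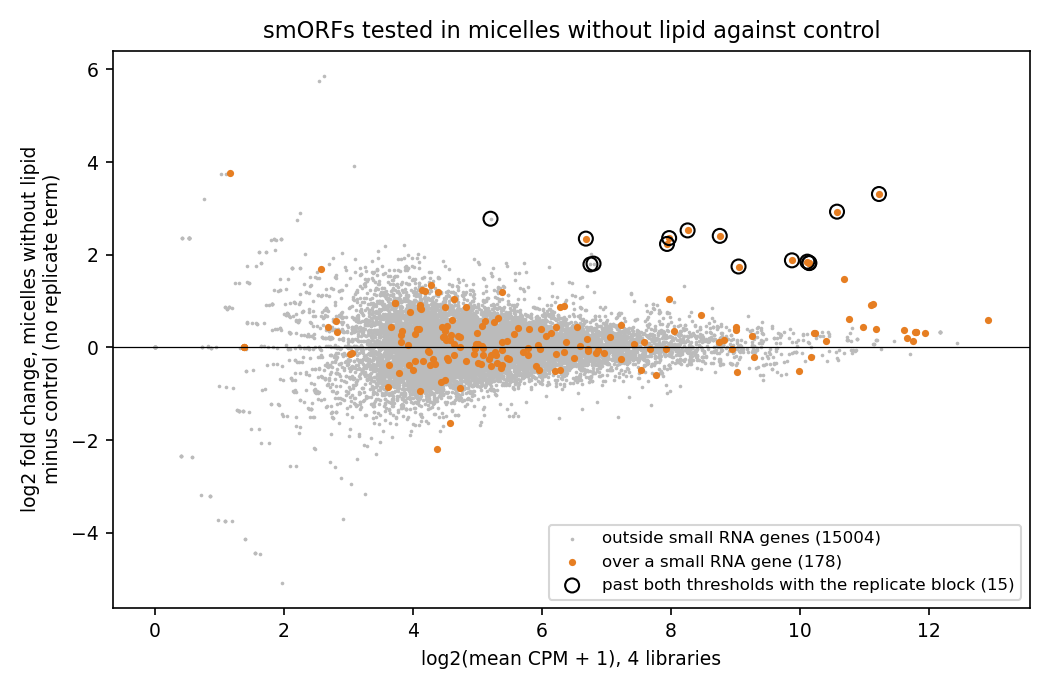
Log2 fold change of each of 15182 smORFs (micelles without lipid minus control, no replicate term) against log2 of the mean CPM plus 1 over the 4 libraries. Orange points are the 178 smORFs over small RNA genes, and circles mark the 15 called with the replicate block, all above 0 and 12 of them orange.

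Of the 10 host labels with a called smORF, 4 held H/ACA box snoRNAs, the class that guides pseudouridylation. SNORA19 lies in EIF3A, which encodes the largest subunit of translation initiation factor 3. The 1 smORF of this label, 18 bases at positions 51 to 68 of the snoRNA, had 37 and 610 counts in the control libraries and 985 and 4999 with micelles. In CPM this was 441 ± 519 (SD, n = 2) against 4373 ± 3608, so the SDs were of the size of the means while the groups did not overlap. The log2 fold change was 3.29 ± 0.91 (SE) without the block (edgeR, adjusted p = 0.818) and 3.68 ± 0.28 with it (adjusted p = 1.41e-06). The 2 smORFs labelled EIF3A alone, without the name of the snoRNA, had 26 and 20 counts in control cells and 14 and 29 with micelles, a log2 fold change of -0.19 ± 0.43.

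SNORA12, in the gene CWF19L1, showed the same order of libraries. Its smORF at positions 44 to 67 had 52 and 456 counts in control cells and 825 and 2798 with micelles, with a log2 fold change of 2.91 ± 0.78 (adjusted p = 0.761), or 3.26 ± 0.27 with the block (edgeR, adjusted p = 2.45e-06). SNORA14A lies in POR, the gene of the reductase that supplies electrons to cytochrome P450 enzymes. Controls held 50 and 133 counts of it and micelle libraries 269 and 698, 5.29-fold in mean CPM (edgeR, adjusted p = 0.581, and 4.20e-05 with the block). SNORA21 lies in the ribosomal protein gene RPL23, and its smORF starts ahead of the snoRNA and overlaps it in 66 of 93 bases. The control libraries nearly coincided there, with 32.3 and 35.8 CPM in control cells and 135 and 208 CPM with micelles. Its log2 fold change was 2.33 ± 0.41 (adjusted p = 0.219), with an adjusted p of 0.00271 with the block and of 0.00784 by DESeq2.

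Among C/D box snoRNAs, which guide 2′-O-methylation of ribose, SNORD50B in the non-coding host gene SNHG5 stood out. The smORF inside the snoRNA held 149 and 389 counts in the controls and 731 and 1173 with micelles, a log2 fold change of 1.88 ± 0.32 (edgeR, adjusted p = 0.107, and 0.000189 with the block). Undifferentiated cells had 72 and 130 counts of this smORF. The other smORF of the label, IEC_22991, had 55 and 108 counts in control cells and 72 and 117 with micelles. The 24 smORFs labelled SNHG5 alone summed to 901 and 1684 against 1200 and 1841, a log2 fold change of 0.24 ± 0.19. So the snoRNA bases carried most of the difference under this host gene. SNORD20, in the nucleolin gene NCL, was higher to a lesser degree, with 2160 and 4070 CPM in control cells and 5081 and 6663 CPM with micelles (log2 fold change 0.91 ± 0.28, edgeR adjusted p = 0.916, and 0.0408 with the block at a log2 fold change of 0.96, short of the fold threshold).

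Other small RNA loci were called with the block. SCARNA4, a guide RNA of Cajal bodies in KHDC4, had 35 and 85 counts in control cells and 88 and 637 with micelles, so that the second micelle library carried most of the difference (5.71-fold in mean CPM, edgeR adjusted p = 0.761, and 0.00707 with the block). RNU1-34P, a pseudogene of the U1 spliceosomal RNA in FILIP1, had 83 and 245 counts in control cells and 429 and 615 with micelles (log2 fold change 1.73 ± 0.58, adjusted p = 0.932, and 0.00707 with the block). Undifferentiated cells had 1012 and 2938 counts of RNU1-34P. Reads of U1 copies can map to several places, and how such reads were counted is not given in the sources used here.

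The 45 snoRNA smORFs tested lay over 29 genes and formed 29 clusters of overlapping smORFs. They include those called above, so their summary in part restates that selection. Of 45, 34 had a log2 fold change above 0, with a median of 0.32, where the median over the 15004 smORFs outside small RNA genes was 0.01 and 50.9% were above 0. Both micelle libraries lay above both controls for 19 of the 45 (42.2%) and below them for 5 (11.1%), against 16.2% and 15.9% of all smORFs tested. The 12 smORFs over 11 H/ACA box genes, 4 of them called with the block, had a median of 0.88. The 31 over 17 C/D box genes, 1 of them called with the block, had a median of 0.30. For snRNA genes 21 of 30 were above 0 (median 0.33), for miRNA genes 23 of 41 (median 0.13) for misc RNA genes 28 of 57 (median -0.01) and for scaRNA genes 1 of 4 (median -0.11).

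snoRNA smORFs held 2.28% and 3.11% of all smORF counts in the control libraries and 3.63% and 4.67% with micelles. With lipid micelles the shares were 1.95% and 2.48%. Both libraries with micelles without lipid therefore lay above the 4 other differentiated libraries. The shares include the snoRNA smORFs called above with the block, so they in part restate that selection. Reads shared by overlapping smORFs count in them more than once. For all small RNA smORFs together the shares were 5.05% and 6.27% in control cells, 6.99% and 9.17% with micelles and 5.21% and 6.10% with lipid micelles. In undifferentiated cells snoRNA smORFs held 1.15% and 1.31%, and all small RNA smORFs 6.67% and 9.22%. In each of these groups the share was higher in library 2. The part of this shift of the share in the results on single small RNAs was not tested.

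**Figure D2:**
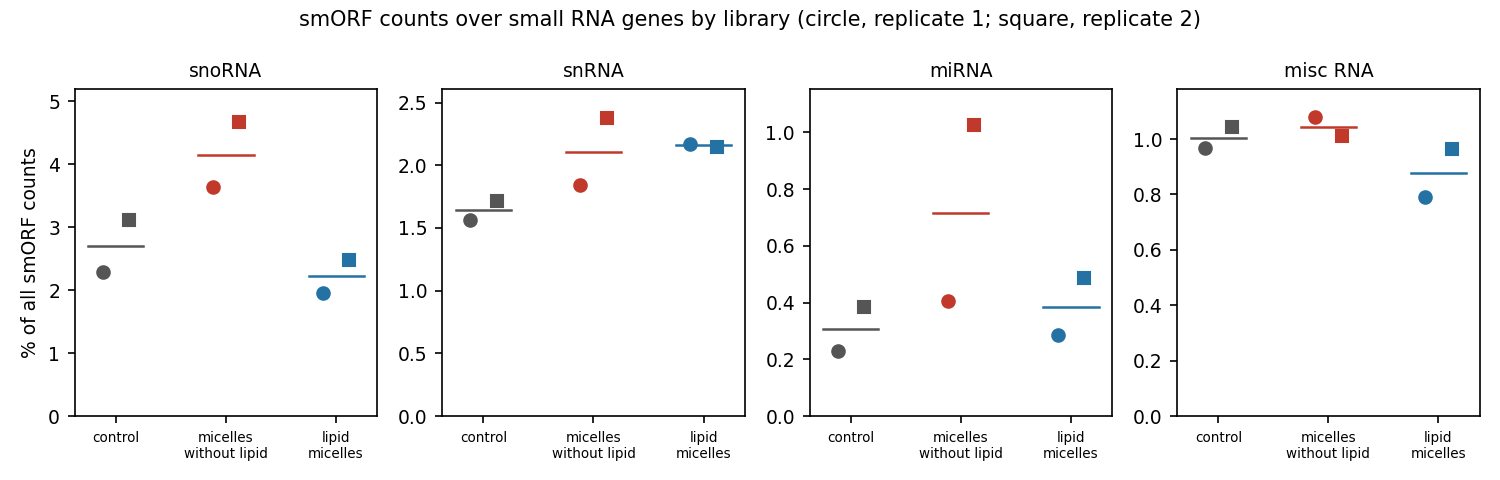
Share of all smORF counts, in percent, that fell on smORFs over snoRNA, snRNA, miRNA and misc RNA genes, for each differentiated library (circles, replicate 1, squares, replicate 2, lines, group means). For snoRNA the libraries with micelles without lipid, at 3.63% and 4.67%, lie above the other 4, which run from 1.95% to 3.11%. The shares include smORFs that were called on these same libraries.

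MIR22HG is the non-coding host gene of miR-22, a microRNA that is abundant in many tissues. The 11 smORFs labelled MIR22;MIR22HG summed to 445 and 2042 counts in control cells and 1510 and 7016 with micelles, 1801 ± 1278 CPM against 6255 ± 4896 CPM. The log2 fold change was 1.79 ± 0.58 (edgeR, adjusted p = 0.932) and 1.75 ± 0.18 with the block (adjusted p = 4.20e-05). The lower micelle library, at 2793 CPM, lay just above the higher control library, at 2705 CPM. Undifferentiated cells had 4982 and 8167 CPM. Several of the 11 smORFs hold the same reads, so these sums count them several times. Of the 9 tested, both micelle libraries lay above both controls for 3, beside 16.2% of all smORFs tested. For IEC_15523 micelle library 1, at 743 CPM, lay below control library 2, at 754 CPM.

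The counts under MIR22 depended on which bases a smORF covered. IEC_16521, which holds all of miR-22-3p as printed above, had 115 and 563 counts in control cells and 395 and 1994 with micelles. IEC_15522, which begins at base 2 of miR-22-3p, had 20 and 92 against 118 and 453. IEC_22109, which begins at base 1713921, within the mature sequence and past its seed, had 8 and 29 against 22 and 27 with micelles, a log2 fold change of 0.46 (edgeR, unadjusted p = 0.285). IEC_15524, which lies upstream of IEC_16521 from base 1713975, had 9 and 24 against 8 and 19. Of the 9 smORFs of this label that were tested, the 5 that cover miR-22-3p from its base 1 or 2 were called with the block, and the other 4, which begin at 1713921 or end ahead of miR-22, did not reach an unadjusted p under 0.05. The 14 smORFs labelled MIR22HG alone had 320 and 303 counts in control cells and 552 and 473 with micelles (log2 fold change 0.68 ± 0.28, edgeR adjusted p = 0.954).

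**Figure D3:**
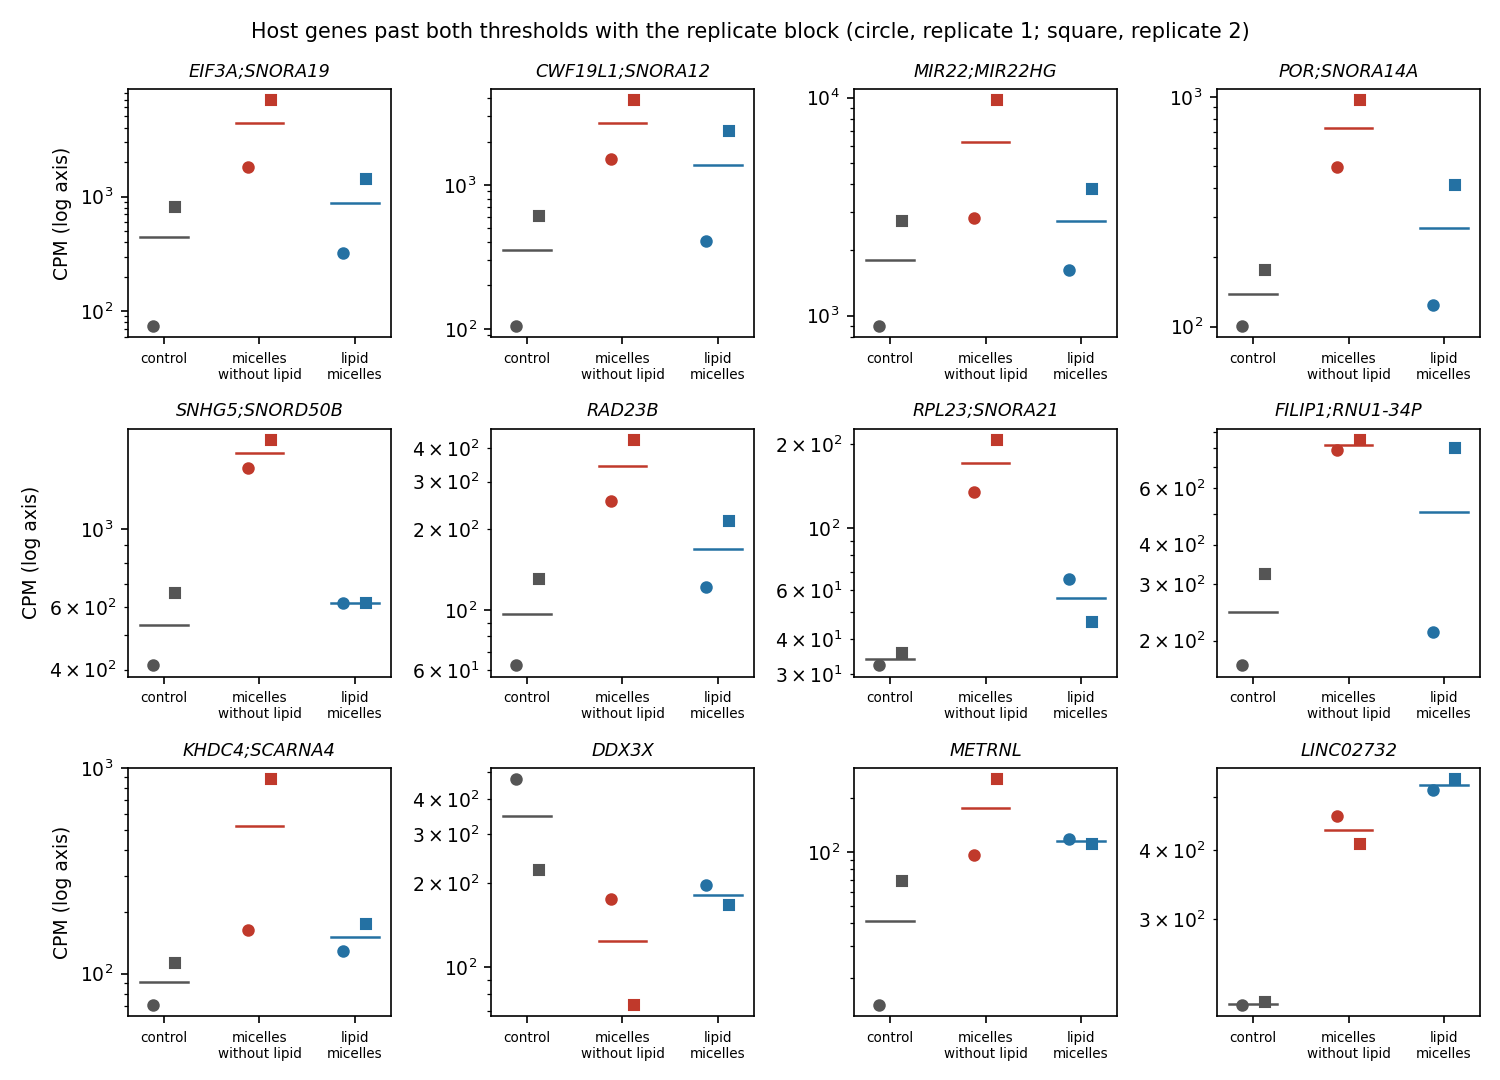
CPM, on a log axis, of the 12 host genes called with the replicate block in control cells, cells with micelles without lipid and cells with lipid micelles (circles, replicate 1, squares, replicate 2, lines, group means). For 11 of them both micelle libraries lie above both controls and for DDX3X both lie below. The 12 were chosen on these same libraries, and sums over overlapping smORFs count shared reads several times.

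Outside small RNAs, the uORFs of RAD23B were the clearest. RAD23B encodes a protein that takes part in nucleotide excision repair and carries ubiquitinated proteins to the proteasome. Its 2 smORFs, IEC_05492 and IEC_03243, share a start at base 107283287 of chromosome 9 and nearly all of their 21 and 24 bases, so they are 1 observation. Summed, they had 31 and 99 counts in control cells and 138 and 310 with micelles, 96.8 ± 48.5 CPM against 342 ± 123 CPM. In undifferentiated cells the sum was 320 and 475 CPM. At a log2 fold change of 1.79 ± 0.40 for the sum, the main test gave an adjusted p of 0.581 (edgeR), and the call was made with the block (adjusted p = 0.00126) and by DESeq2 (adjusted p = 0.0275). The sum counts the shared reads of the 2 uORFs more than once. Tested singly, each uORF was called with the block (edgeR, adjusted p = 0.00394) but not by DESeq2 (adjusted p = 0.437). RAD23B was also the host gene called with the block when the small RNA smORFs were left out.

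MAN1A1 encodes a Golgi mannosidase that trims N-glycans. Its uORF IEC_16694, of 18 bases, had 3 and 9 counts in control cells and 16 and 70 with micelles (log2 fold change 2.78 ± 0.65, edgeR adjusted p = 0.523, and 0.00395 with the block). The 3 smORFs labelled MAN1A1, summed, held 146 and 198 counts in control cells and 200 and 466 with micelles, for a log2 fold change of 0.87 ± 0.29 (edgeR, adjusted p = 0.932), which was not called. METRNL encodes a secreted protein, meteorin-like, that is made in gut epithelium, fat and muscle. Its only smORF, a uORF of 42 bases, had 7 and 52 counts in control cells and 52 and 183 with micelles. Tested among host genes, METRNL was 4.21-fold higher in mean CPM (edgeR, adjusted p = 0.761, and 0.0432 with the block). Tested among smORFs, the same counts had an adjusted p of 0.0555 with the block (edgeR) and were not called.

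LINC02732, a long non-coding RNA gene on chromosome 11 with 3 smORFs, had control libraries that nearly coincided, at 210 and 212 CPM. Both libraries with micelles lay higher, at 461 and 410 CPM, and those with lipid micelles at 513 and 538 CPM. The log2 fold change with micelles without lipid was 1.04 ± 0.26 (edgeR, adjusted p = 0.761, and 0.0441 with the block). All 3 of its smORFs were higher in both micelle libraries than in both controls, beside 16.2% of all smORFs tested. The 3 formed 2 clusters, so the sum counts shared reads more than once. Between lipid micelles and micelles without lipid the log2 difference was 0.27 (edgeR, adjusted p = 1), a difference that was not called.

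DDX3X, the gene of an RNA helicase that helps the initiation of translation on structured leaders, was the only host gene called lower. Its 5 uORFs overlap one another and hold nearly the same reads, and the sums of 234 and 169 counts in control cells and 95 and 53 with micelles count them several times. One of them, IEC_06700, had 48 and 37 counts against 19 and 12. For the sum the log2 fold change was -1.49 ± 0.41 (edgeR, adjusted p = 0.761, and 0.0248 with the block). With 1 smORF kept per cluster of overlaps, the adjusted p with the block was 0.0502 and the call was lost.

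FABP6-AS1 is a non-coding gene on the opposite strand within FABP6, and FABP6 encodes the ileal protein that binds bile acids in the enterocyte cytosol. The deposited table held no smORF labelled FABP6. The 11 smORFs labelled FABP6-AS1 summed to 664 and 758 CPM in control cells and 1302 and 1344 CPM with micelles, and those with lipid micelles had 1159 and 1278 CPM. This was a log2 fold change of 0.90 ± 0.20 (edgeR, adjusted p = 0.581), and with the block the adjusted p was 0.0432 at a fold below the threshold. All 11 smORFs had log2 fold changes above 0, from 0.38 to 1.37, but they formed 3 clusters and share reads. Of the 11, 1 lay opposite an annotated exon of FABP6, and for that smORF, IEC_20352, reads of the gene and of its antisense partner cannot be told apart, since the strand setting of the counting is not given in the sources used here. Its counts were 29 and 62 in control cells and 54 and 89 with micelles. The smORF with the most counts, IEC_23996, faces no FABP6 exon and had 80 and 150 counts against 196 and 248.

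Of the genes that handle bile acids, 7 of 33 could be tested through a smORF, and none was called in either direction, with or without the block. Their median log2 fold change was 0.13, against 0.00 over all 4966 host genes tested, and both micelle libraries lay above both controls for 3 of them (over all host genes, 15.8%) and below for 2 (16.3%). ABCG2, an apical efflux pump, had 103 and 196 CPM in control cells and 235 and 238 CPM with micelles, a log2 fold change of 0.64 ± 0.31 (edgeR, adjusted p = 0.954). ABCC3, a basolateral export pump for bile acid conjugates, had 56.5 and 63.6 CPM against 94.3 and 69.3 CPM. NR1I3, the nuclear receptor CAR, had 86.7 and 106 CPM against 61.0 and 85.9 CPM. The other 4 tested were NR5A2 at -0.33 ± 0.29, SLC51B at 0.42 ± 0.47, ABCC2 at 0.13 ± 0.20 and SLCO2B1 at -0.13 ± 0.21. For SLC51B the groups overlapped. FGF19, NR0B2 and SLC51A, which are among the FXR targets, had no labelled smORF.

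Genes of sterol synthesis held no call. Of 15 tested, 10 had a log2 fold change above 0 (median 0.13), beside 49.8% of all host genes tested. For 6 of the 15 both micelle libraries lay above both controls and for 1 below, beside 15.8% and 16.3% of all host genes. MSMO1, which acts late in cholesterol synthesis, had 333 and 527 CPM in control cells and 572 and 699 CPM with micelles (log2 fold change 0.56 ± 0.25, edgeR adjusted p = 0.954). Within it the uORF IEC_08074, of 45 bases, had 9 and 13 counts against 24 and 50, while the dORF IEC_00760 in the 3′ untranslated region had 20 and 26 against 18 and 22. HMGCS1, the synthase ahead of HMG-CoA reductase, had 56.5 and 47.7 CPM in control cells and 104 and 69.3 CPM with micelles. SQLE, squalene epoxidase, had 702 and 877 CPM against 954 and 1183 CPM. With lipid micelles the list median against control was -0.13, and 2 of the 15 genes were higher with lipid micelles than with micelles without lipid, at a median of -0.37 between these groups and no call.

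SREBF2, the gene of the transcription factor that switches on sterol synthesis when cell cholesterol is low, had the smallest p of the sterol control list. It had 62.5 and 62.2 CPM in control cells, 126 and 158 CPM with micelles and 67.5 and 93.3 CPM with lipid micelles. The log2 fold change of 1.19 ± 0.30 had an unadjusted p of 0.00188 and an adjusted p of 0.761 by edgeR, and 0.191 with the block. With the block and 1 smORF kept per cluster the adjusted p was 0.0287, although SREBF2's own counts are the same in that table, since its 3 smORFs do not overlap. The uORF IEC_03424 had 12 and 17 counts in control cells and 55 and 45 with micelles. The second uORF, IEC_03425, had 7 and 16 counts against 2 and 55, and the dORF IEC_03426 had 12 and 14 against 11 and 14. The other 9 genes of the list ran from -0.20 to 0.42 on the log2 scale, among them INSIG2, which holds the SREBP complex in the endoplasmic reticulum, at 0.42 ± 0.33, and the sterol carrier STARD4, at 0.24 ± 0.35.

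**Figure D4:**
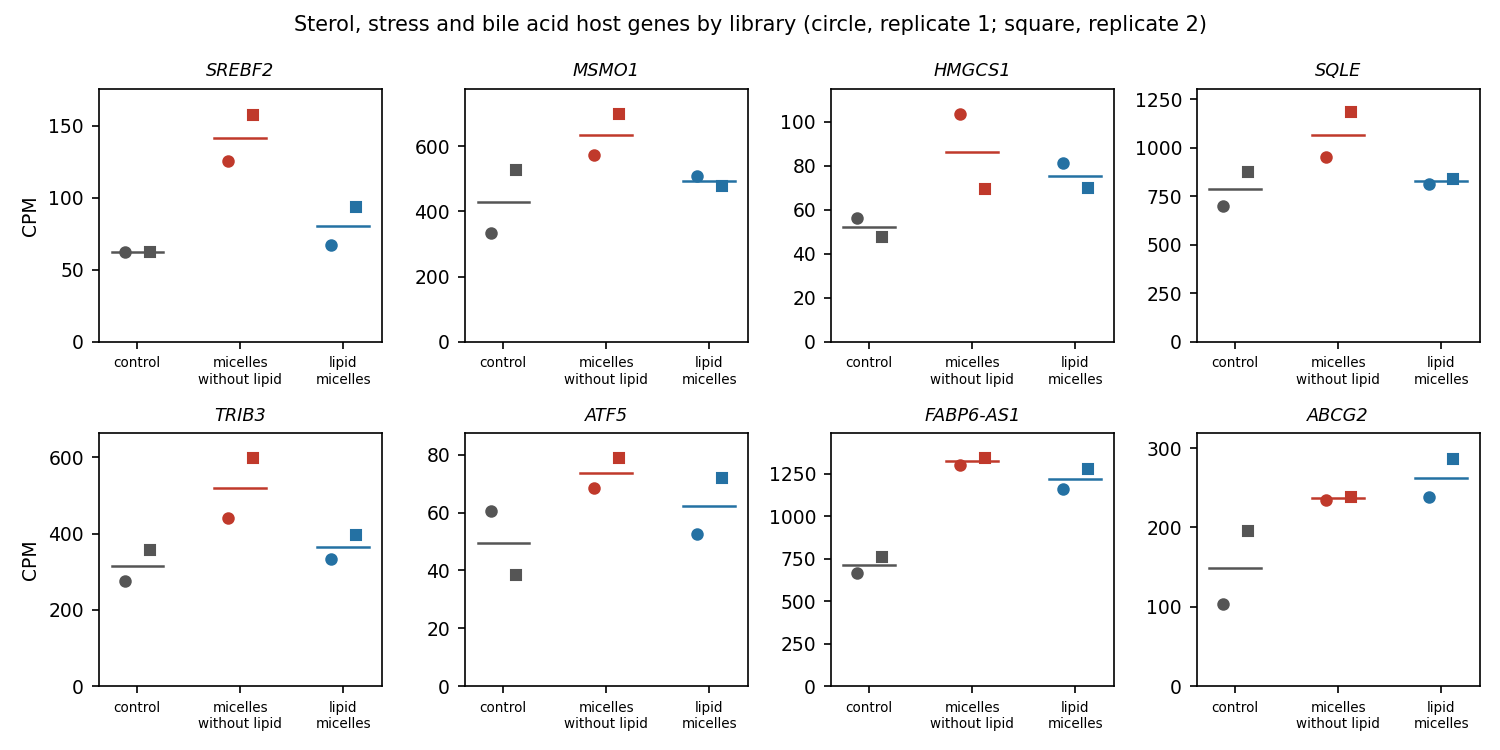
CPM of 8 host genes in the differentiated libraries (circles, replicate 1, squares, replicate 2, lines, group means). They are genes of sterol synthesis and its control, stress and bile acid handling, and the non-coding FABP6-AS1, which is not in the bile acid list. SREBF2 lies at 126 and 158 CPM with micelles without lipid and between 62.2 and 93.3 CPM in the other libraries shown. FABP6-AS1 lies between 1159 and 1344 CPM in all 4 micelle libraries and at 664 and 758 CPM in control cells.

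Genes of the integrated stress response and of endoplasmic reticulum stress, many of which are controlled by uORFs, held no call. Of 16 tested, 9 were above 0, with a median of 0.02. TRIB3, a pseudokinase induced by ATF4, had 276 and 356 CPM in control cells and 440 and 598 CPM with micelles, a log2 fold change of 0.71 ± 0.26 (edgeR, unadjusted p = 0.0160, adjusted p = 0.932). Both of its uORFs had higher counts in the micelle libraries, IEC_00165 with 88 and 184 against 155 and 209 and IEC_00166 with 49 and 85 against 83 and 223. ATF5, a transcription factor of the same response, had 60.5 and 38.4 CPM against 68.4 and 78.9 CPM. PPP1R15A, the phosphatase subunit that ends the response, had 232 and 154 CPM against 146 and 161 CPM.

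The other lists held no call. Cell junction genes had 13 members tested, 5 above 0 (median -0.07), and 4 with both micelle libraries below both controls and 1 above, beside 16.3% and 15.8% of all host genes. Among them CTNND1, which steadies cadherins at the membrane, had 2229 and 1992 CPM in control cells and 1470 and 1535 CPM with micelles (log2 fold change -0.49 ± 0.18, edgeR adjusted p = 0.932). The tight junction scaffold TJP1 had 8 and 17 counts against 7 and 8, and F11R, junctional adhesion molecule A, was at -0.33 ± 0.26. Immediate early and growth response genes had 8 tested, 6 above 0 (median 0.19), and for 4 of the 8 both micelle libraries lay above both controls and for 1 below. The member DUSP6, a phosphatase of the ERK pathway, was at 194 and 175 CPM against 276 and 263 CPM (log2 fold change 0.55 ± 0.24). KLF6 was at 0.46 ± 0.30 and JUN at 0.27 ± 0.28. Inflammation genes had 8 tested, 7 above 0 (median 0.24), with IRF1 at 0.49 ± 0.39 and TNIP1 at 0.29 ± 0.27 and the 1 lower member, NFKB2, at -0.71 ± 0.63, and for none of the 8 did both micelle libraries lie above both controls.

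Lipid absorption genes had 13 tested, 9 above 0 (median 0.13). APOA1, the main protein of high density lipoprotein, had 313 and 600 CPM in control cells and 544 and 903 CPM with micelles, so the groups overlapped (log2 fold change 0.66 ± 0.36). APOE had 559 and 489 CPM against 292 and 432 CPM, with 632 and 913 CPM for lipid micelles. ACSL3, an acyl-CoA synthetase with 25 smORFs, was at 0.32 ± 0.19. Fatty acid synthesis genes had 7 tested and 2 above 0 (median -0.04), with the desaturase FADS1 at 0.85 ± 0.44 and ACLY at -0.42 ± 0.31, and FADS2 at 1 and 1 counts against 2 and 3. Genes that respond to fatty acids had 5 tested and 3 above 0 (median 0.16), with CPT2 at 0.65 ± 0.48, PPARD at 0.16 ± 0.33, and the fatty acid binding protein FABP1 at 1965 and 1150 CPM against 3089 and 1047 CPM, higher in library 1 of each group.

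Heat shock genes had 7 tested (median 0.05), with HSF1 at 0.90 ± 0.43, HSPA1B at -0.40 ± 0.28 and HSPE1 at -0.69 ± 0.51. Oxidative stress genes had 10 tested (median 0.08), with SOD2 at -0.59 ± 0.34, NFE2L1 at 0.26 ± 0.20 and OSGIN1 at 0.57 ± 0.51. Hypoxia and glycolysis genes had 15 tested (median -0.04), with the oxygen sensor EGLN1 at 80.7 and 114 CPM against 115 and 244 CPM (log2 fold change 0.88 ± 0.36), ENO1 at -0.56 ± 0.35 and VEGFA at 0.33 ± 0.21. Autophagy and lysosome genes had 14 tested and 5 above 0 (median -0.11). GABARAPL1, which coats autophagosomes, had 1920 and 1882 CPM in control cells, 1348 and 1400 CPM with micelles and 2013 and 2018 CPM with lipid micelles (log2 fold change -0.47 ± 0.19, edgeR adjusted p = 0.954). ATG5 was at 0.48 ± 0.28 and WIPI2 at -0.57 ± 0.36. WNT and progenitor genes had 6 tested (median 0.05), with CTNNB1 at -0.28 ± 0.27, RNF43 at 0.13 ± 0.25 and ASCL2 at 0.15 ± 0.30.

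**Figure D5:**
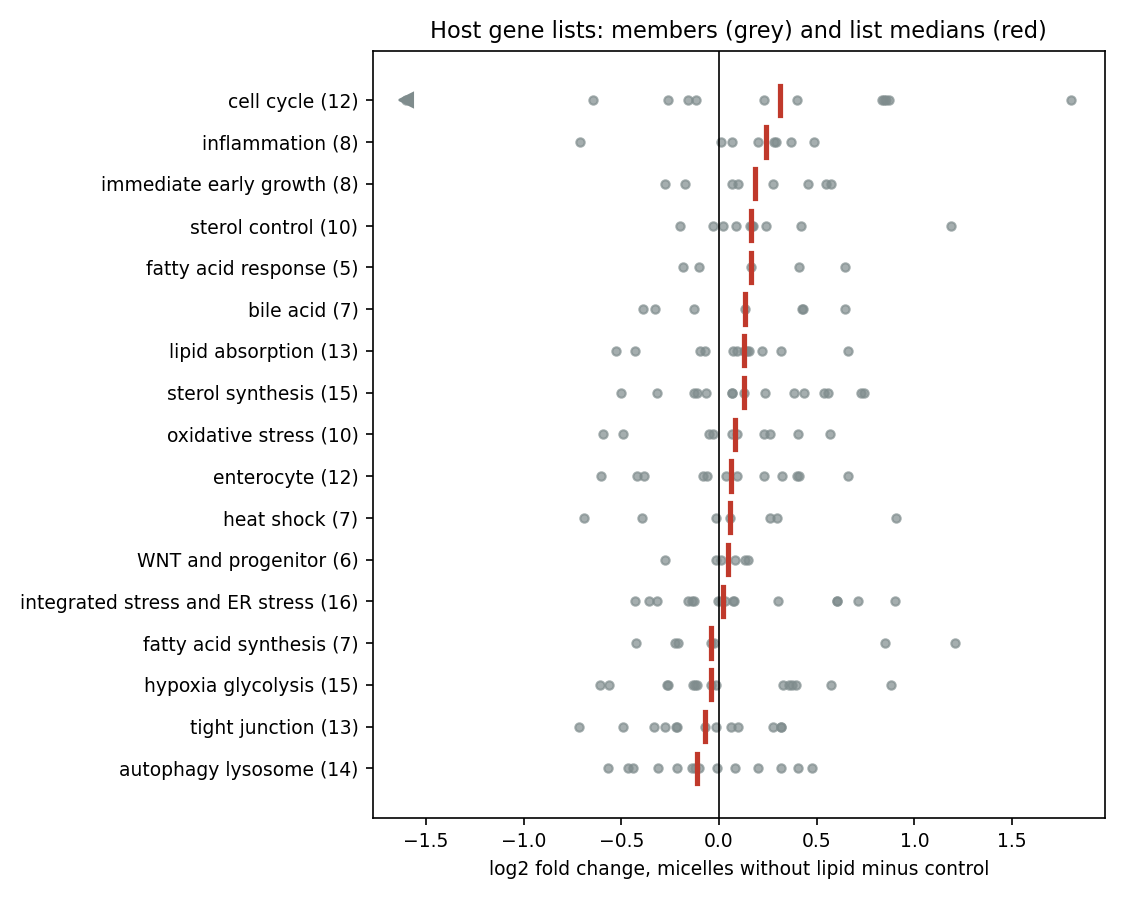
Log2 fold change (micelles without lipid minus control, no replicate term) of the host genes tested in each of 17 lists, with the number tested in parentheses. Grey points are genes, red bars list medians, which run from -0.11 to 0.31, and the black line marks 0. The arrow stands for CCNB2, which lies beyond the axis.

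As sums, the enterocyte and cell cycle markers went with the labels, while single markers could differ. The enterocyte markers, 12 of them tested, summed to 6321 and 5989 CPM in control cells and 7482 and 6506 CPM with micelles, above 2472 and 2577 CPM in undifferentiated cells. APOA1, the fructose transporter SLC2A5 (-0.60 ± 0.43) and the glucose transporter SLC2A2 (0.40 ± 0.40) had the smallest p among them, and none was called. APOA1 ran against the sum, with 925 and 1328 CPM in undifferentiated cells and 313 and 600 CPM in control cells. The cell cycle markers, 12 of them tested, summed to 738 and 727 CPM in control cells and 668 and 584 CPM with micelles, against 8027 and 8213 CPM in undifferentiated cells. While this sum was lower with micelles, 7 of the 12 had a log2 fold change above 0 (median 0.31), beside 49.8% of all host genes tested. Among the 12, AURKA had 280 and 234 CPM against 202 and 129 CPM, MCM5 had 0 and 8 counts against 12 and 16, and CCNB2 had 2 and 6 counts against 0 and 0. No fibroblast marker exceeded 2 counts in the 4 libraries. Of the immune markers PTPRC and HLA-DRA were at 0 and CD14 reached 9 counts in 1 control library. No enteroendocrine marker had a labelled smORF, and the goblet markers AGR2 and ZG16 lay at -0.13 ± 0.23 and 0.11 ± 0.28. These goblet markers summed to 1196 and 1324 CPM in control cells and 4162 and 2790 CPM in undifferentiated cells.

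Among the remaining host genes with the smallest p and no overlap between the groups, 784 of 4966 (15.8%) had both micelle libraries above both controls and 810 (16.3%) below, so a lack of overlap by itself was common. INAFM2, which encodes a small membrane protein, had 2 and 3 counts in control cells and 14 and 30 with micelles, but its 2 uORFs overlap and the larger held 2 and 3 counts against 8 and 17. GRB2, the adaptor that links receptor tyrosine kinases to RAS, had 879 and 1029 CPM in control cells and 1607 and 1651 CPM with micelles over 9 uORFs of 1 cluster (log2 fold change 0.77 ± 0.19, edgeR adjusted p = 0.761). With lipid micelles GRB2 had 1321 and 1355 CPM.

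On the lower side ASXL2, a chromatin regulator, had 19 and 23 counts in control cells and 3 and 6 with micelles (log2 fold change -2.24 ± 0.52, edgeR adjusted p = 0.584). The magnesium exporter SLC41A1 had 31 and 34 counts against 7 and 12, and the estrogen receptor GPER1 22 and 24 against 4 and 6. The non-coding genes ALOX12-AS1 and LINC01278 had 32 and 50 counts against 10 and 17, and 138 and 143 against 61 and 86. ZNF585B, a zinc finger gene, had 29 and 47 against 10 and 20, and SFPQ, a splicing factor of paraspeckles, had 33 and 47 against 17 and 17. MX1, an interferon-induced antiviral GTPase, had 13 and 11 counts against 0 and 0, but no smORF of it held more than 2 counts in a control library, and its 14 smORFs formed 3 clusters that share reads. RNASE1 had 5 and 4 counts against 0 and 0 over 2 overlapping smORFs. No fold is given for MX1 and RNASE1, since with 1 smORF per cluster both groups lay at or under 3 counts per library.

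Lipid micelles were set beside micelles without lipid in their direct contrast, which does not use the control libraries. Without the block none of the 75 named host genes was called in it. With the block 7 of the 71 of them that could be tested were called by edgeR, and 0.211% of all 4736 host genes. The contrast shares its 2 libraries of micelles without lipid with the comparison to control by which many of these genes were chosen, so the count is a description and nothing is read from it against that share. EIF3A;SNORA19, CWF19L1;SNORA12, MIR22;MIR22HG, POR;SNORA14A, SNHG5;SNORD50B and RPL23;SNORA21 were lower with lipid micelles, by log2 differences of -2.41, -1.33, -1.07, -1.56, -1.39 and -1.61. APOE, which transports cholesterol and other lipids in lipoproteins, was the 1 higher, by 1.09 (adjusted p = 0.0495). For SREBF2 the log2 difference was -0.81 (unadjusted p = 0.0157, adjusted p = 0.990 without the block). RAD23B was at -1.02 (adjusted p = 1).

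By location class, non-coding smORFs held 22.3% and 23.9% of the counts in control cells and 24.5% and 26.5% with micelles. uORFs held 72.6% and 71.1% against 70.7% and 69.0%, and dORFs, which lie in 3′ untranslated regions, a mean of 3.77% against 3.32%. The groups did not overlap in any of the 3 classes, and each exact permutation test over the 4 libraries gave a two-sided p of 0.333, the smallest it can give. Without the small RNA smORFs the difference in the non-coding class shrank from 2.40 to 0.441 percentage points and that in the uORF class from -1.98 to -0.148. Among single dORFs, 352 of 879 tested had a log2 fold change above 0, with a median of -0.10, against 51.7% of 11112 uORFs with a median of 0.02.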

How the data were processed

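Per the study's methods, the authors aligned Ribo-Seq reads to hg38 with STAR (2.7.11a in the submitters' processing notes), found smORFs with RibORF (a score of at least 0.7 and at most 150 amino acids, with the score, length and position of each smORF deposited), counted reads per smORF with HOMER and deposited raw counts with no normalization. The authors' RibORF and PhyloCSF score values were not tested here. The strand and multi-mapping options of the counting are not given in the sources used here. All per-library columns were used, and the 1051 smORFs without a host label were left out of host sums.

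Counts were tested with edgeR 4.0.16 (filterByExpr, TMM, quasi-likelihood, group term, all 8 libraries, Benjamini-Hochberg over all features tested), and the scripts were tested on simulated data. SEs derive from the quasi-likelihood F statistic. DESeq2 1.42.0, other scalings and filters, leaving out each library, and the replicate block were alternatives. Depth was 506382 to 884711 smORF counts per library, which limits smORFs of few counts. Small RNA overlap used GENCODE release 44 and smORF clusters joined overlapping smORF exons, both on 1 strand, and miR-22 came from RefSeq. Within groups, counts differed by more than sampling noise (chi-square per degree of freedom 2.51 in control cells and 3.25 with micelles).

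Equal replicate numbers were checked for pairing. On edgeR's log2 CPM the residuals about each group's mean had correlations of 0.198 (control and micelles without lipid), 0.119 (control and lipid micelles) and 0.109 (both micelle groups), and on log2(CPM + 1) of 0.173, 0.110 and 0.0956, around the limit of 0.1. With undifferentiated cells, on the first scale, they ran from -0.0653 to 0.0208. Replicate 2 was the deeper library in each differentiated group, and replicate 1 in undifferentiated cells (671323 against 584101 counts). The correlations therefore cannot tell pairing from the order of depth. The labels do not state a pairing, so the test without the block is the main one and blocked values stand beside it where they change a call.

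Members and gene lists were chosen with earlier results of these data known. Named host genes were those called in either fit and those with an adjusted p under 0.05 with the block at any fold. Added were the 10 with the smallest p in each direction among those whose groups do not overlap. From each list of 3 or more tested came the 3 with the smallest p. Every list member at an unadjusted p under 0.05 in the bile acid, sterol and stress lists was named too. The positional comparisons under MIR22 and SNHG5 and other single smORFs of named genes were chosen after their values were seen. A list gene took the label with the highest mean count that names it.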

Additional observations from a re-analysis of the deposited data

How the results depend on the processing

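The count of calls depended on the processing. Without a replicate term, 0 smORFs and 0 host genes were called by edgeR with TMM or DESeq2's size factors, with the 6 or 4 libraries compared, with 10 counts in every library, with 1 smORF per overlap cluster or without small RNA smORFs. DESeq2's Wald test called 2 smORFs and 3 host genes, and dropping the low-count filter gave 36 and 9. The replicate block gave 15 and 12, and 7 of the named host genes in the direct contrast of the micelle groups. Chosen after seeing the data, the block with 1 smORF per cluster gave 14 and 18, and the block without small RNA smORFs 3 and 1. Leaving out 1 library gave 0 to 25 smORFs, with 25 without micelle library 1, 7 without control library 2 and 2 without either undifferentiated library. Whether equal numbers pair the libraries is not settled by the labels, and the cause of these differences was not tested.

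List medians moved without a call. With 10 counts in every library they were 0.283 for bile acid, -0.154 for cell cycle, 0.289 for fatty acid response and -0.203 for fatty acid synthesis genes. With 1 smORF per cluster the fatty acid response median was 0.00728, and with the block added it was 0.00177 and that of cell cycle genes -0.179. For fatty acid synthesis it was -0.130 with the block, -0.126 with the 4 libraries compared and -0.215 with the block without small RNA smORFs. For immediate early genes it was 0.274 with the 4 libraries. Leaving out 1 library moved the medians from 0.0126 to 0.173 for bile acid, -0.559 to 0.760 for cell cycle, -0.116 to 0.381 for fatty acid response, -0.0845 to 0.0561 for fatty acid synthesis, -0.0542 to 0.127 for hypoxia, 0.167 to 0.290 for immediate early, 0.103 to 0.256 for inflammation, 0.0638 to 0.281 for lipid absorption, -0.147 to 0.303 for oxidative stress, 0.127 to 0.486 for sterol synthesis, -0.0407 to 0.143 for stress and -0.0271 to 0.243 for WNT genes.

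Of the location classes, the uORF difference was -0.148 and the non-coding one 0.441 percentage points without small RNA smORFs, and the dORF one -0.637 with 1 smORF per cluster. Single uncalled genes changed sign. NFKB2 was at 0.21 with 1 smORF per cluster. Leaving out 1 library gave WIPI2 from -1.02 to 0.056, CPT2 from -0.28 to 1.19, FABP1 from -0.56 to 1.00, PPARD from -0.10 to 0.54 (and -0.074 without micelle library 2), HSPE1 from -1.34 to 0.47, ENO1 from -0.97 to 0.0075, TNIP1 from -0.13 to 0.63, STARD4 from -0.15 to 0.59, PPP1R15A from -0.58 to 0.00076, F11R from -0.60 to 0.020, CTNNB1 from -0.65 to 0.26, RNF43 from -0.014 to 0.32 (and -0.013 without control library 1) and ASCL2 from -0.020 to 0.38. At 506382 to 884711 counts per library, smORFs of a few counts were measured with little precision.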
